A study of Mus musculus with 12 samples.

Results

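The tissue inhibitors of metalloproteinases and a set of the proteases they hold in check were followed here through 4 conditions of cultured mouse cardiomyocytes. The genes were Timp1, Timp2, Timp3 and Timp4, the matrix metalloproteinases Mmp2 and Mmp14, and the ADAMTS proteases Adamts1, Adamts4, Adamts5 and Adamts9, chosen by name from the gene symbols of the deposited expression table. Of these 10 genes, 9 were found among 22915 genes in the table, and all 9 passed the filter on low values, together with 13184 genes in all. Timp4 was not analysed here.

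Primary cardiomyocytes of adult male C57/Bl6 mice (12 weeks of age) were kept for 24 h under normoxia with 1 of 4 additions, and each condition gave 3 RNA-seq libraries, 12 in all. Control cells received sterile PBS. The others received, at 25 ng/mL according to the labels (the study's methods state a lower concentration), murine leukemia inhibitory factor (mLIF), which acts through the LIF receptor (LIFR), murine oncostatin M (mOSM), which acts through the oncostatin M receptor (OSMR), or human-like oncostatin M (hlOSM), a murine protein carrying the human AB loop that engages both receptors. The labels give no genotype beyond the strain. The question put by the design is which changes follow LIFR, OSMR or joint activation. Whether the 3 libraries of a condition came from separate mice is not given in the sources used here. The p-values therefore measure only the spread between these libraries, which may be technical. The deposited values may also have been adjusted for the replicate number of the labels, which was not tested. In that case the spread is understated and the p-values could be too small.

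TIMPs are secreted proteins that block the active site of metalloproteinases. TIMP2 has a further role, since it bridges MMP14 (a membrane-anchored collagenase) and pro-MMP2 (the precursor of a gelatinase) when pro-MMP2 is activated at the cell surface, and TIMP3, which stays bound to the matrix, is the family's principal inhibitor of aggrecan-cleaving ADAMTS enzymes. ADAMTS1, ADAMTS4, ADAMTS5 and ADAMTS9 are secreted proteases that cut large proteoglycans such as aggrecan and versican. In the heart this balance of inhibitors and proteases sets how the extracellular matrix is turned over.

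All values are the normalized read counts of the deposited table, which are whole numbers and are not divided by gene length. Their depth in reads is unknown, and library totals lay between 2745748 and 2911891. Fold changes and standard errors are from limma on log2(normalized count + 1), which understates changes of low genes, with two-sided p-values adjusted over all 13184 genes by the Benjamini-Hochberg method and a threshold of 0.05.

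The labelled cell type was checked against marker genes. The 8 cardiomyocyte markers summed to between 18725 and 20667 normalized counts in the PBS libraries, 16210 to 18143 with mLIF, 14802 to 17381 with mOSM and 15458 to 16015 with hlOSM, and 6 of 8 fell with hlOSM. Markers of other cell types were present as well. The 8 fibroblast markers summed to 1896 to 2158 with PBS, 1838 to 1856 with mLIF, 1679 to 1843 with mOSM and 1596 to 1656 with hlOSM, where 6 of 8 fell and 2 rose. Of those that fell, Dpt passed the filter on low values only through the PBS and mLIF libraries, in which it was high. Its call is no support for a fall. The rise of Lum was lost with the replicate number as a block (limma adjusted p = 0.0748). The 6 mural cell markers went from 647 to 770 with PBS to 641 to 653 with mLIF, 531 to 610 with mOSM and 492 to 523 with hlOSM, where 4 of 5 tested fell. Endothelial markers (6 genes) went the other way, from 1042 to 1098 with PBS and 1038 to 1091 with mLIF to 1286 to 1430 with mOSM and 1297 to 1405 with hlOSM, where 5 of 6 rose. Among these, Tek lost its call with the replicate number as a block (limma adjusted p = 0.0647). Leukocyte markers (6 genes) summed to 140 to 145 with PBS, 138 to 160 with mLIF, 194 to 228 with mOSM and 182 to 257 with hlOSM, and the 1 of 5 tested that rose, Cd68, had 61, 60 and 40 normalized counts with PBS and 118, 109 and 170 with hlOSM, while Ptprc, Adgre1 and Csf1r passed in no comparison with PBS. Itgam fell with mOSM (log2 −1.13, limma adjusted p = 0.0324), a call lost with the replicate number as a block (0.0622). Over all genes, 18.2% rose and 19.8% fell with hlOSM. No marker of these lists was at 0 in every library of a condition. Several of the genes described here are also made by fibroblasts, endothelial cells and mural cells, and in these bulk samples a change in the number of cells of a type and a change in RNA per cell cannot be told apart. The part of these marker shifts in the results was not tested.

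With mLIF, 2 of the 9 genes rose (Timp1 and Adamts4) and 3 fell (Timp3, Adamts1 and Adamts5), beside 5.47% of all genes that rose and 4.44% that fell. mOSM raised 3 (Timp1, Adamts4 and Adamts9) and lowered 2 (Timp2 and Mmp2), beside 15.4% and 15.8% of all genes. hlOSM raised 3 (Timp1, Adamts4 and Adamts9) and lowered 4 (Timp2, Timp3, Mmp2 and Adamts1), beside 18.2% and 19.8%. These 3 comparisons share their PBS libraries. Counted in either direction, mLIF changed 5 of 9 genes, beside 9.91% of all genes, mOSM 5 of 9, beside 31.2%, and hlOSM 7 of 9, beside 37.9%. The libraries did not overlap those with PBS for 7 of the 9 genes with mLIF (30.3% of all genes), for 5 with mOSM (40.1%) and for 7 with hlOSM (47%). When the replicate number was added as a block, mLIF changed 4 genes, beside 5.95% of all genes. As a median, the log2 fold change of the 9 genes came to −0.18 (mLIF), −0.04 (mOSM) and −0.11 (hlOSM), beside a median over all genes of 0.00 with mLIF.

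**Figure D1:**
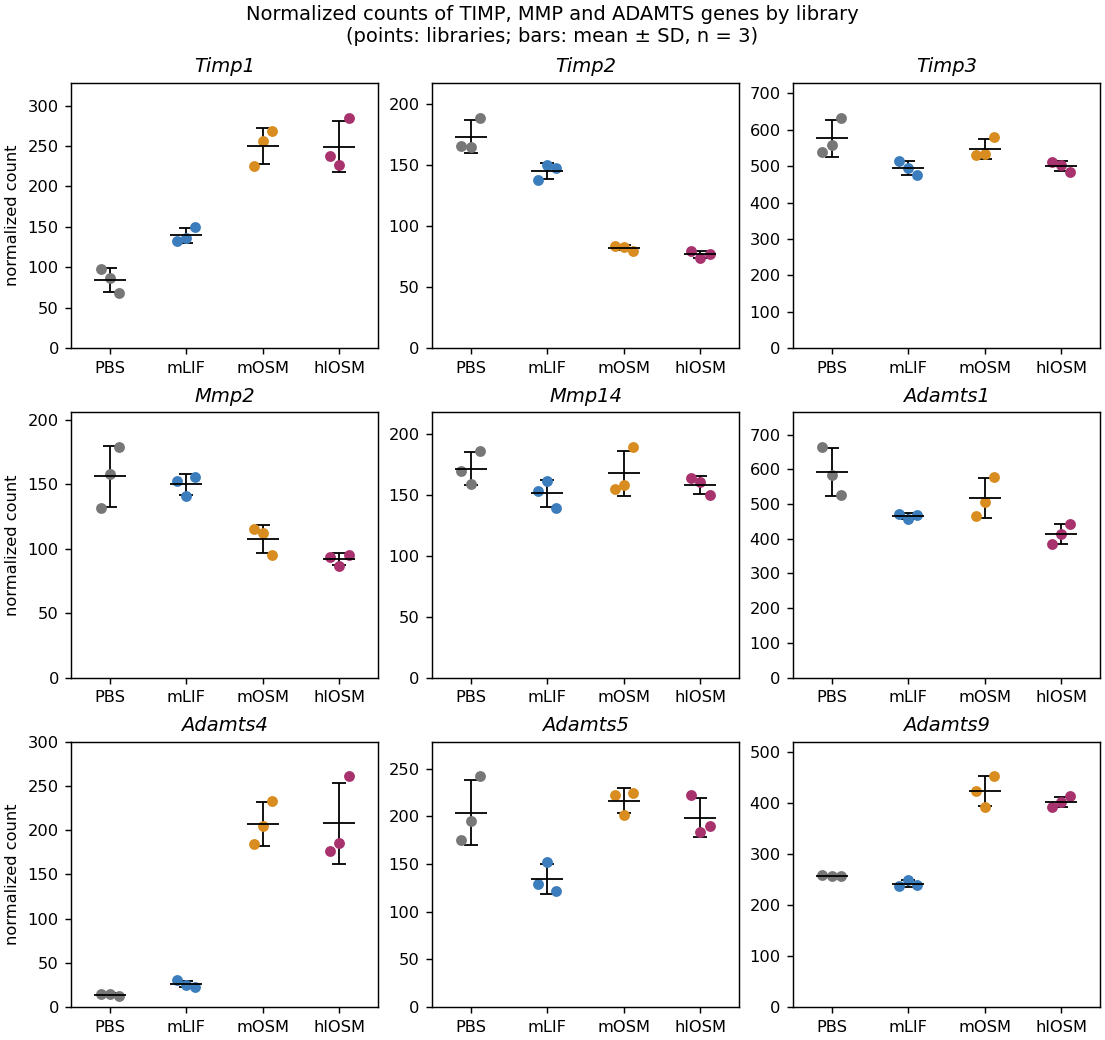
Normalized read count of each of the 9 genes in each library (points), by condition, with bars for the mean ± SD (n = 3), on linear axes that start at 0. Adamts4 lies between 12 and 15 with PBS and between 177 and 261 with hlOSM, whereas the points of Mmp14 lie between 139 and 189 in all 12 libraries.

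Timp1 and Adamts9 rose with both oncostatin M proteins while Adamts1 fell with hlOSM, and the 250 bases before the start of these 3 genes are shown to let their promoters be compared. The sequences and start sites are those of RefSeq on build GRCm38.p6, read on each gene's own strand, and capitals mark a GC box (GGGCGG or its reverse complement CCGCCC) or a TATA box (TATAAA).
Timp1 (chrX:20869916-20870165, plus strand): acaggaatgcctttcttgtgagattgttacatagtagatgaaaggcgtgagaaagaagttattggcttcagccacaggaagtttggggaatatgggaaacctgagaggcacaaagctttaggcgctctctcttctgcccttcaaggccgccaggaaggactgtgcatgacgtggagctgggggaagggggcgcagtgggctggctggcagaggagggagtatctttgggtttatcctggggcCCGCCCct
Adamts9 (chr6:92943535-92943784, minus strand): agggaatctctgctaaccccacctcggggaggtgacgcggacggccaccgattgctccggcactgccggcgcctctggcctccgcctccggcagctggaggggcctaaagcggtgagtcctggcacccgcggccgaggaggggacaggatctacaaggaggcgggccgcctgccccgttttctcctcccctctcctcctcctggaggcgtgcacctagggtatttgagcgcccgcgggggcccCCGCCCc
Adamts1 (chr16:85803114-85803363, minus strand): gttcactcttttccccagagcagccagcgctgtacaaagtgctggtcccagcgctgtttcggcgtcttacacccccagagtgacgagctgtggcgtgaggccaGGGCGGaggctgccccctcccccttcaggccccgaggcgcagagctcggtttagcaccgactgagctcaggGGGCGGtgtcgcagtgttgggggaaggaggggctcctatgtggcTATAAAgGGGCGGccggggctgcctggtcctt
Adamts1 held a TATA box 32 bases before its start and 3 GC boxes, the nearest 25 bases before the start, and these matches did not overlap each other. Timp1 and Adamts9 held no TATA box, and each had 1 GC box, at 8 and 7 bases before the start. Timp2, which fell with hlOSM, and Timp3, whose fall rests on PBS library 3, likewise held no TATA box and 1 GC box each. These letters did not separate the genes that rose from those that fell. Over all 32817 windows of this length, 12.4% held the TATA letters and 32.7% a GC box on either strand. The windows held 54.4% G and C for Timp1, 71.2% for Adamts9 and 65.6% for Adamts1, beside a median of 52.4% over all windows.

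A window was given for 7 of the 10 genes (Timp1, Timp2, Timp3, Timp4, Mmp14, Adamts1 and Adamts9). Neither the STAT motif TTCNNNGAA nor the AP-1 motif TGANTCA, both of which read the same on either strand, was found in any of the 7. The shares over all windows were 7.01% and 6.75%. These letters not being in a window of 250 bases says nothing on whether a factor binds near the gene.

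Among the inhibitors, Timp1 and Timp2 moved in opposite directions. Timp1 (ENSMUSG00000001131, mm10 chromosome X, 20870166 to 20874735, plus strand, 888 exonic bases) encodes a soluble inhibitor with a broad range of metalloproteinase targets. It had 98, 87 and 68 normalized counts with PBS, 132, 136 and 150 with mLIF, 225, 256 and 268 with mOSM, and the hlOSM libraries gave 237, 226 and 285. Every cytokine library lay above every PBS library, and both oncostatin M conditions lay above mLIF. The rise was 1.66-fold with mLIF (log2 0.73 ± 0.11 SE, limma adjusted p = 3.26e-04), 2.96-fold with mOSM (log2 1.57, adjusted p = 5.03e-10) and 2.95-fold with hlOSM (log2 1.56, adjusted p = 3.42e-10). Timp1 lies inside Syn1, a neuronal gene on the other strand, without sharing exonic bases with it. Syn1 had 0 or 1 normalized counts in the PBS libraries and 5 to 16 in the mOSM and hlOSM libraries.

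Timp2 (ENSMUSG00000017466, chromosome 11, 118301069 to 118355740, minus strand), the inhibitor that takes part in pro-MMP2 activation, fell with both oncostatin M proteins. Its normalized counts were 166, 165 and 189 with PBS, 138, 150 and 148 with mLIF, 84, 83 and 80 with mOSM, and the hlOSM libraries gave 80, 74 and 77. The ranges did not overlap between PBS, mLIF and either oncostatin M condition. Timp2 was 2.09-fold lower with mOSM (log2 −1.06, limma adjusted p = 4.17e-09) and 2.23-fold lower with hlOSM (log2 −1.16, adjusted p = 7.08e-10). With mLIF the log2 difference of −0.25 (95% interval −0.43 to −0.07) missed the threshold at an adjusted p of 0.0690, and passed it when the libraries were rescaled by a trimmed mean (adjusted p = 0.0470) or by quantiles (0.0413).

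Timp3 (ENSMUSG00000020044, chromosome 10, 86300372 to 86349506, plus strand) changed least among the inhibitors. It had 538, 558 and 633 normalized counts with PBS, 515, 494 and 475 with mLIF, 530, 534 and 579 with mOSM, and the hlOSM libraries gave 511, 503 and 484. The mLIF and hlOSM libraries all lay below the PBS libraries, and the mOSM libraries overlapped them. Timp3 fell by 0.22 on the log2 scale with mLIF (limma adjusted p = 0.0307) and by 0.20 with hlOSM (adjusted p = 0.0141). The log2 difference with mOSM was −0.07 (adjusted p = 0.426). Without PBS library 3, the highest of the 12, the differences were −0.15 with mLIF (adjusted p = 0.199) and −0.13 with hlOSM (adjusted p = 0.116), so both calls rest on that library. The mLIF call was also lost without mLIF library 2 (adjusted p = 0.0830) or 3 (0.145) and with the replicate number as a block (0.0612). Of Timp3's exonic bases, 21.3% overlap Syn3 on the other strand, which had between 1 and 7 normalized counts in all libraries.

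Both matrix metalloproteinases of the pro-MMP2 activation complex were measured. Mmp2 (ENSMUSG00000031740, chromosome 8, 92827291 to 92853420, plus strand), the gelatinase, had 132, 158 and 179 normalized counts with PBS, 153, 141 and 156 with mLIF, 115, 112 and 95 with mOSM, and the hlOSM libraries gave 94, 87 and 95. All mOSM and hlOSM libraries lay below the lowest PBS library, and the mLIF libraries lay within the PBS range. Mmp2 was 1.45-fold lower with mOSM (log2 −0.53, limma adjusted p = 4.05e-04) and 1.68-fold lower with hlOSM (log2 −0.75, adjusted p = 5.59e-06), and its log2 difference with mLIF was −0.05 (adjusted p = 0.810). The fibroblast and mural marker sums given above were also lowest with hlOSM, as were Timp2 and Mmp2, and their part in these falls was not tested.

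Mmp14 (ENSMUSG00000000957, chromosome 14, 54431612 to 54445364, plus strand), the membrane-type enzyme, passed the threshold in none of the comparisons. Its normalized counts were 171 ± 13.7 with PBS, 151 ± 11.1 with mLIF, 167 ± 18.8 with mOSM and 158 ± 7.21 with hlOSM (mean ± SD, n = 3 each). The log2 differences from PBS were −0.18, −0.04 and −0.11, with limma adjusted p of 0.208, 0.792 and 0.333. Thus Timp2 and Mmp2 both fell with mOSM and hlOSM, and for Mmp14, the third component, no difference was called.

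Among the ADAMTS proteases, Adamts4 changed most. Adamts4 (ENSMUSG00000006403, chromosome 1, 171250421 to 171260637, plus strand) encodes an aggrecanase and had 15, 15 and 12 normalized counts with PBS, 30, 25 and 23 with mLIF, 184, 205 and 233 with mOSM, and the hlOSM libraries gave 177, 186 and 261. The PBS, mLIF and oncostatin M libraries formed 3 ranges without overlap, and the mOSM and hlOSM ranges overlapped. On the log2(normalized count + 1) scale the rise was 1.80-fold with mLIF (log2 0.85 ± 0.15 SE, limma adjusted p = 9.65e-04), 13.9-fold with mOSM (log2 3.80 ± 0.15 SE, adjusted p = 2.88e-14) and 13.8-fold with hlOSM (log2 3.79, adjusted p = 3.05e-14).

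Adamts9 (ENSMUSG00000030022, chromosome 6, 92772699 to 92943492, minus strand), a versican-cleaving member of the family, rose with both oncostatin M proteins and not with mLIF. It had 258, 256 and 256 normalized counts with PBS, 238, 249 and 239 with mLIF, 423, 393 and 452 with mOSM, and the hlOSM libraries gave 393, 401 and 413. The mOSM and hlOSM libraries all lay above every PBS and mLIF library. The rise was 1.64-fold with mOSM (log2 0.72 ± 0.06 SE, limma adjusted p = 1.05e-08) and 1.57-fold with hlOSM (log2 0.65, adjusted p = 3.07e-08), and the log2 difference with mLIF was −0.08 (adjusted p = 0.410). The annotated transcripts A730049H05Rik and Gm15737 overlap 12.0% of its exonic bases. A730049H05Rik had 0 to 3 normalized counts with PBS and mLIF, 58, 22 and 42 with mOSM, and the hlOSM libraries gave 33, 21 and 31. Reads that overlapped several genes were left out of the authors' counts, and whether the counting used strand is not given in the sources used here. The endothelial marker sums were higher in the mOSM and hlOSM libraries, where Timp1, Adamts4 and Adamts9 were higher, and their part was not tested.

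Adamts1 and Adamts5 lie near each other on chromosome 16 (Adamts1, ENSMUSG00000022893, 85793827 to 85803113, and Adamts5, ENSMUSG00000022894, 85856173 to 85901828, both on the minus strand). Adamts1, a versican- and aggrecan-cleaving protease, had 664, 583 and 527 normalized counts with PBS, 472, 456 and 469 with mLIF, 465, 506 and 578 with mOSM, and the hlOSM libraries gave 385, 413 and 441. The mLIF and hlOSM libraries lay below all PBS libraries, whereas the mOSM libraries overlapped them. Adamts1 was 1.26-fold lower with mLIF (log2 −0.34 ± 0.08 SE, limma adjusted p = 0.00945) and 1.43-fold lower with hlOSM (log2 −0.51, adjusted p = 2.43e-05). With mOSM the log2 difference was −0.19 (adjusted p = 0.0677), and it passed without PBS library 3 (−0.27, adjusted p = 0.0159) or mOSM library 3 (−0.28, adjusted p = 0.0107). The mLIF call was lost without PBS library 1 (−0.25, adjusted p = 0.0561).

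Adamts5, an aggrecanase like Adamts4, was the gene that fell with mLIF and with neither oncostatin M protein. Its normalized counts were 175, 195 and 242 with PBS, 129, 152 and 122 with mLIF, 223, 202 and 225 with mOSM, and the hlOSM libraries gave 222, 184 and 190. The mLIF libraries lay below all others, while the PBS, mOSM and hlOSM ranges overlapped. It was 1.51-fold lower with mLIF (log2 −0.59 ± 0.11 SE, limma adjusted p = 0.00115), and its log2 differences were 0.10 with mOSM (adjusted p = 0.520) and −0.03 with hlOSM (adjusted p = 0.848). The aggrecanases Adamts4 and Adamts5 therefore differed in direction with mLIF.

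**Figure D2:**
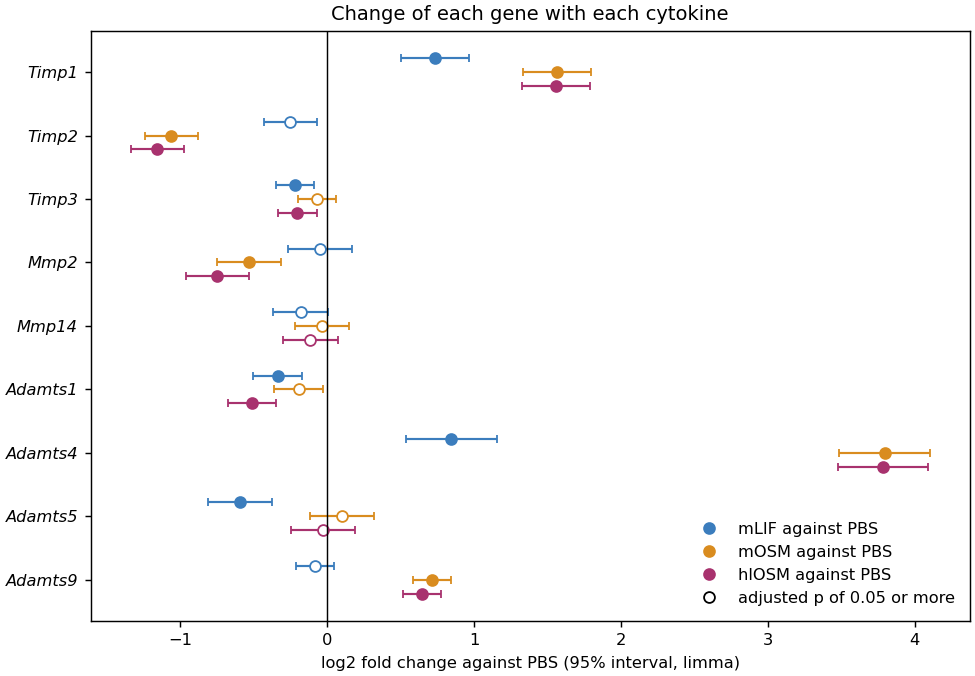
Log2 fold change against PBS of each of the 9 genes with mLIF (blue), mOSM (orange) and hlOSM (purple), with bars for the 95% interval of the limma fit and open points for an adjusted p of 0.05 or more. The intervals of Adamts4 with mOSM and hlOSM lie around 3.80 and 3.79, those of Timp2 around −1.06 and −1.16, and the interval of Adamts5 lies wholly below 0 with mLIF alone.

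The receptors were then compared directly. Between mOSM and mLIF, 4 of the 9 genes were higher with mOSM and 2 were lower, beside 6.05% and 5.76% of all genes. Higher were Adamts4 (log2 difference 2.95, limma adjusted p = 5.17e-12), Timp1 (0.84, adjusted p = 1.44e-05), Adamts9 (0.80, adjusted p = 5.10e-09) and Adamts5 (0.69, adjusted p = 7.49e-05). Timp2 was lower by a log2 difference of −0.81 (adjusted p = 6.64e-07) and Mmp2 by −0.48 (adjusted p = 0.00270). The aggrecanases, which went apart with mLIF, were thus both higher with mOSM than with mLIF. Timp3, Mmp14 and Adamts1 did not pass, at log2 differences of 0.15, 0.14 and 0.14. In all, 6 of 9 genes passed, beside 11.8% of all genes, and 7 of 9 had ranges that did not overlap, beside 27.1%.

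Between hlOSM and mLIF, again 4 were higher and 2 lower, beside 7.42% and 9.22% of all genes. In either direction this made 6 of 9, beside 16.6%. Adamts4 was higher by 2.94 on the log2 scale, Timp1 by 0.83, Adamts9 by 0.73 and Adamts5 by 0.56, and Timp2 differed by −0.91 and Mmp2 by −0.70. These comparisons share their mLIF libraries. Adamts1 was lower with hlOSM than with mLIF in all libraries, with a log2 difference of −0.17 that did not pass (limma adjusted p = 0.149). With it, 7 of 9 genes had ranges apart, beside 31.7% of all genes.

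Between hlOSM and mOSM, which differ in the AB loop and in whether LIFR is engaged, none of the 9 genes passed, beside 0.106% of all genes. At an unadjusted limma p under 0.05 there were 3 (Adamts1, Mmp2 and Timp3), all lower with hlOSM, beside 7.49% of all genes. Adamts1 differed by −0.32 on the log2 scale (95% interval −0.48 to −0.15, adjusted p = 0.159) with all hlOSM libraries below all mOSM libraries, and Mmp2 by −0.22 (adjusted p = 0.661). Timp3 differed by −0.13 with ranges that also did not overlap, so 2 of 9 genes had ranges apart, beside 9.74% of all genes. The intervals of the strongest responders were −0.32 to 0.30 for Adamts4, −0.24 to 0.23 for Timp1, −0.28 to 0.08 for Timp2 and −0.20 to 0.06 for Adamts9. A missed threshold does not show that the proteins act alike on these genes. Differences within those intervals remain compatible with the values of the 3 libraries a condition. The intervals are no limit of detection, since that of Adamts1 was wholly negative and the gene still missed the adjusted threshold.

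Whether hlOSM gave the sum of the mLIF and mOSM changes was tested as the difference between hlOSM minus mOSM and mLIF minus PBS. For Timp1 the separate log2 changes summed to 2.30 and hlOSM gave 1.56, a difference of −0.74 (95% interval −1.06 to −0.41, limma adjusted p = 0.0533). For Adamts4 the sum was 4.64 and hlOSM gave 3.79, a difference of −0.86 (adjusted p = 0.103). For Adamts5 the sum was −0.49 and hlOSM gave −0.03, a difference of 0.46 (adjusted p = 0.211). These 3 genes had an unadjusted p under 0.05, beside 11.5% of all genes. For the others the hlOSM value and the sum were closer, as for Adamts1 (−0.51 and −0.53) and Adamts9 (0.65 and 0.63). None of the 9 passed after adjustment, beside 0.167% of all genes, although Timp1 passed with a stricter filter on low values (adjusted p = 0.0388).

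**Figure D3:**
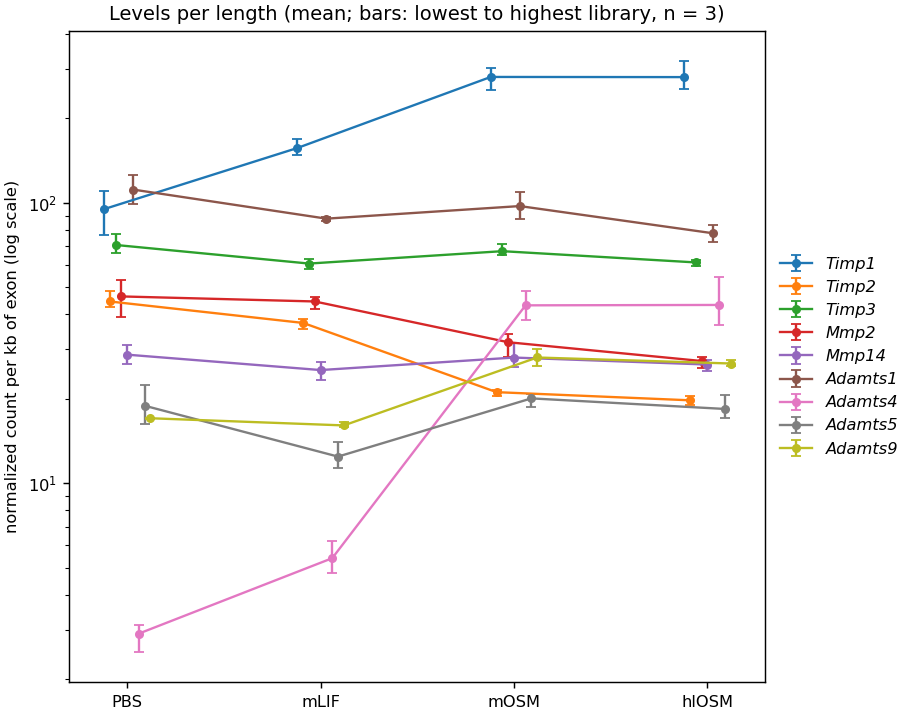
Normalized count per kilobase of exon for the 9 genes in each condition, on a log axis, with points for the mean of 3 libraries, bars from the lowest to the highest library and lines that join the means of a gene. Adamts4 goes from the lowest place with PBS and mLIF (2.91 and 5.41 per kb) to the fourth with mOSM and hlOSM (43.1 and 43.2 per kb), and Timp1 stands first in the 3 cytokine conditions.

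Levels were compared between genes per kilobase of exon, since longer transcripts give more reads. The length was that of all annotated exons of a gene, not of the transcripts expressed, so the order of genes depends on it. With PBS the mean normalized counts per kb ran from 112 for Adamts1 through 95 for Timp1, 70.8 for Timp3, 46.4 for Mmp2, 44.5 for Timp2, 28.7 for Mmp14, 18.9 for Adamts5 and 17.1 for Adamts9 to 2.91 for Adamts4. The ranges of neighbours overlapped for Adamts1 with Timp1, Timp1 with Timp3, Mmp2 with Timp2, and Adamts5 with Adamts9. With mLIF, Timp1 stood first at 157 per kb ahead of Adamts1 at 87.8 and Timp3 at 60.7, and no neighbours overlapped. Below them came Mmp2 (44.5 per kb), Timp2 (37.3), Mmp14 (25.3), Adamts9 (16.1), Adamts5 (12.4) and Adamts4 (5.41).

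With mOSM the order per kb was Timp1 (281), Adamts1 (97.4), Timp3 (67.2), Adamts4 (43.1), Mmp2 (31.8), Adamts9 (28.1), Mmp14 (28.1), Timp2 (21.1) and Adamts5 (20.1). The order with hlOSM was the same, with Timp1 at 281 and Adamts1 at 77.9 per kb. In both conditions the neighbours Mmp2 and Adamts9, Adamts9 and Mmp14, and Timp2 and Adamts5 overlapped. Timp2 went from just below Mmp2 with PBS to the eighth place, and Adamts4 from the ninth to the fourth.

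The same levels per kb gave ratios within each library. Timp1 stood 1.58 to 2.59 times above Timp2 with PBS, 3.98 to 4.45 times with mLIF, 11.8 to 14.7 times with mOSM and 13.0 to 16.2 times with hlOSM, and only the last 2 ranges overlapped. The ratio of Adamts4 to Adamts5 was 0.111 to 0.192 with PBS, 0.369 to 0.522 with mLIF, 1.85 to 2.32 with mOSM and 1.79 to 3.08 with hlOSM. Per kb, Adamts4 thus stood above Adamts5 with both oncostatin M proteins and below it otherwise. Not divided by length, their normalized counts overlapped with mOSM (184 to 233 and 202 to 225) and with hlOSM (177 to 261 and 184 to 222). The order in those conditions therefore rests on the annotated lengths. Adamts4 to Adamts1 went from 0.0249 to 0.0284 with PBS to 0.0541 to 0.0701 with mLIF, 0.436 to 0.447 with mOSM and 0.496 to 0.652 with hlOSM, and stayed under 1. The ratio of Timp2 to Mmp2 moved less, from 0.904 to 1.09 with PBS and 0.780 to 0.920 with mLIF to 0.632 to 0.729 with mOSM and 0.701 to 0.736 with hlOSM. An exact permutation test of 3 against 3 libraries cannot go below p = 0.1, so no p is given for the ratios.

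**Figure D4:**
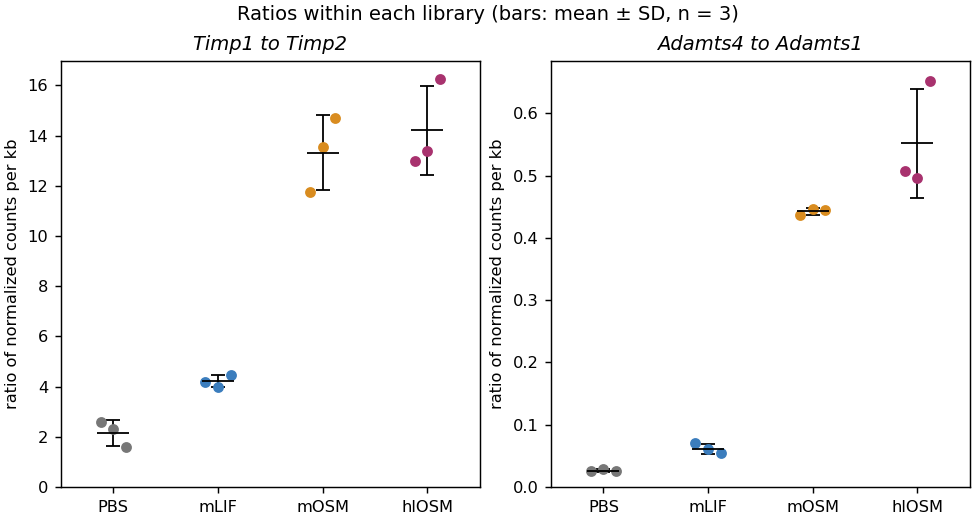
Ratio of levels per kilobase of exon within each library (points) for Timp1 to Timp2 and Adamts4 to Adamts1, by condition, with bars for the mean ± SD (n = 3), on linear axes that start at 0. Timp1 to Timp2 lies between 1.58 and 2.59 with PBS and between 13.0 and 16.2 with hlOSM, and Adamts4 to Adamts1 lies at or below 0.0701 with PBS and mLIF and at or above 0.436 with mOSM and hlOSM.

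Adamts4, which had the largest fold change with hlOSM among the 9 genes, was compared with all 8670 genes of a mean of at least 50 normalized counts. The genes whose log2 values followed it most closely over the 12 libraries were Pros1 (Pearson r = 0.996), Cpxm1 (0.993), Inhbb (0.992), Abi3bp (0.991) and Nabp1 (0.990). The 12 libraries fall into conditions that differ in Adamts4, and the points of a condition share it, so these values are a description.

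Other genes of the pathway were counted by list. Of 10 tested MMP genes beyond Mmp2 and Mmp14, none passed with mLIF, 1 rose and 2 fell with mOSM, and 1 rose and 3 fell with hlOSM. Over all genes 15.4% rose and 15.8% fell with mOSM, and 18.2% rose and 19.8% fell with hlOSM. Mmp15, a membrane-type relative of Mmp14, had log2 fold changes of −0.54 with mOSM (limma adjusted p = 0.0366) and −0.79 with hlOSM (adjusted p = 0.00263). With the replicate number as a block, Mmp15 no longer passed with mOSM (adjusted p = 0.0574). The others were chosen after their values were seen. Mmp13, a collagenase and the gene that rose, had 9, 6 and 23 normalized counts with PBS, 37, 61 and 37 with mOSM and 39, 41 and 25 with hlOSM. Mmp25 fell with both, and Mmp12 with hlOSM (with the block, adjusted p = 0.0660). Mmp13 passed the filter on low values only through the conditions in which it was high, so its call is no support for a rise. Mmp25 passed it only through the PBS and mLIF libraries, in which it was high, so its calls are no support for a fall. The median log2 fold change of the list was −0.09 with mOSM and −0.23 with hlOSM.

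Of 9 tested further ADAMTS genes, none rose with any cytokine, beside 5.47%, 15.4% and 18.2% of all genes with mLIF, mOSM and hlOSM. With so few genes the absence of a rise is near these shares and is not read as a trait of the list. With mLIF 1 fell, beside 4.44% of all genes. With mOSM 4 fell, and with hlOSM 5, beside 15.8% and 19.8% of all genes. The list's median log2 fold changes were −0.16, −0.47 and −0.58. Adamts10, a protease of the fibrillin microfibrils, fell with each of the 3 (log2 −0.64, −1.04 and −1.21, limma adjusted p = 0.00806, 9.81e-06 and 9.55e-07). Adamts3, Adamts12 and Adamts14 fell with mOSM and hlOSM, and Adamts15 with hlOSM. Adamts12 no longer passed with mOSM when the block was added (adjusted p = 0.0739), and Adamts14 passed the filter on low values only through the PBS and mLIF libraries. Adamts15 reached 10 normalized counts in every PBS library and otherwise only in mLIF library 3 and mOSM library 1. It therefore passed the filter only through PBS, where it was high. Neither the Adamts14 calls nor the Adamts15 call is support for a fall. All genes named from this list were chosen after their values were seen, and all had a mean below 50 normalized counts. Adamts4 and Adamts9 were therefore the ADAMTS genes among those tested that rose with mOSM and hlOSM.

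The ADAMTS-like proteins share the matrix-binding modules of the family without its protease domain. Of 4 tested, none passed with mLIF, beside 9.91% of all genes. With mOSM and with hlOSM 1 fell, beside 15.8% and 19.8% of all genes. Adamtsl3 had 113, 121 and 133 normalized counts with PBS, 92, 92 and 110 with mLIF, 25, 23 and 28 with mOSM, and the hlOSM libraries gave 32, 32 and 23. Its log2 fold changes were −2.23 and −2.05 with mOSM and hlOSM (limma adjusted p = 6.30e-11 and 1.72e-10). Adamtsl1, named after its values were seen, had 5, 1 and 2 normalized counts with PBS, 34, 64 and 63 with mOSM and 40, 83 and 41 with hlOSM. It passed the filter only through the conditions in which it was high, so no test is given for it and it is not counted above as a rise.

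Of 7 ADAM sheddases, the membrane-bound relatives that release ectodomains from the cell surface, 1 rose with mLIF and 3 rose with mOSM and with hlOSM, and none fell. Over all genes 5.47%, 15.4% and 18.2% rose with mLIF, mOSM and hlOSM, and 4.44%, 15.8% and 19.8% fell. Adam9 rose in all 3 comparisons with PBS, by log2 fold changes of 0.29 (mLIF), 0.38 (mOSM) and 0.47 (hlOSM). Adam19 (0.59 and 0.70) and Adam10 (0.26 and 0.24) rose with mOSM and hlOSM.

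Among 12 tested genes for other inhibitors, clearance and activation of these proteases, 1 rose with mLIF, 3 rose and 3 fell with mOSM, and 2 rose and 3 fell with hlOSM. Over all genes 5.47% rose with mLIF, 15.4% rose and 15.8% fell with mOSM, and 18.2% rose and 19.8% fell with hlOSM. Cd63, a cell-surface tetraspanin that binds TIMP1, rose with each cytokine (log2 0.29, 0.53 and 0.62, limma adjusted p = 0.00864, 2.51e-06 and 2.03e-07), in the direction of Timp1 itself. Lrp1, an endocytic receptor that clears TIMPs and ADAMTS proteases from the cell surface, had log2 fold changes of −0.23 and −0.34 with mOSM and hlOSM, both past the threshold. The proprotein convertase Pcsk6 fell further (log2 −2.15 and −1.80). Reck, a membrane-anchored inhibitor of metalloproteinases named after its values were seen, went from 25, 29 and 30 normalized counts with PBS to 12, 13 and 12 with mOSM and 16, 11 and 12 with hlOSM (log2 −1.12 and −1.06, adjusted p = 1.84e-04 and 2.48e-04), in the direction of Timp2. Furin, also named after its values were seen, rose with mOSM (log2 0.19, adjusted p = 0.0328), a call lost with the replicate number as a block (adjusted p = 0.0551).

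Of 4 tested proteoglycan substrates and hyaluronan partners, 1 rose with mLIF and 3 with mOSM and with hlOSM, beside 5.47%, 15.4% and 18.2% of all genes. Vcan, which encodes versican, a substrate of the 4 ADAMTS proteases followed here, rose by a log2 fold change of 0.32 with mOSM (limma adjusted p = 2.24e-04) and 0.25 with hlOSM (adjusted p = 0.00199). Cd44, the hyaluronan receptor, rose by 0.41, 0.91 and 1.01 with mLIF, mOSM and hlOSM. Has2, a hyaluronan synthase named after its values were seen, went from 7, 18 and 15 normalized counts with PBS to 79, 47 and 41 with mOSM and 68, 47 and 76 with hlOSM (log2 2.02 and 2.24).

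**Figure D5:**
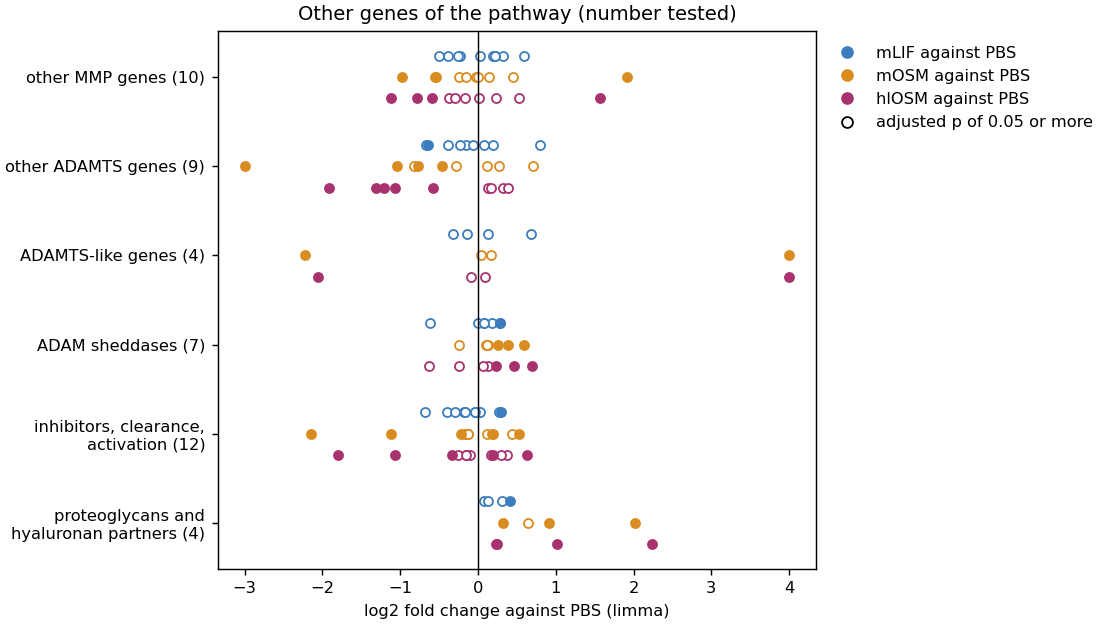
Log2 fold change against PBS of the tested genes of the other pathway lists with mLIF, mOSM and hlOSM, 1 point a gene, filled where the adjusted p was under 0.05. None of the 9 further ADAMTS genes rose past the threshold in any condition, and no ADAM sheddase fell past it. Over all genes, 18.2% rose and 19.8% fell with hlOSM.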

How the data were processed

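Cardiomyocyte RNA of 12 libraries was prepared by the submitters with a stranded total RNA kit. Per the study's methods and the labels, the authors trimmed reads, aligned them with STAR 2.7.7a to mm10 and counted reads in exons of a single gene with featureCounts 1.6.5, without multi-mapping reads. The deposited values are scores: the authors normalized the counts, by a method not given in the sources used here, and rounded them to whole numbers. Depth is therefore unknown, and count models were not used.

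Genes with at least 10 normalized counts in at least 3 libraries (13184 of 22915) entered 1 limma fit (limma 3.58.1, R 4.3.3) of log2(normalized count + 1) over 4 conditions, with an intensity trend, two-sided Benjamini-Hochberg adjustment over all genes, and a threshold of 0.05. It was tested on simulated data. No 2 libraries were identical. The gene table gave no row for the symbol Timp4, which was not analysed here. Exonic lengths and positions came from GENCODE M21, with equal coordinates for all 9 genes, and promoter sequences from RefSeq (GRCm38.p6). Figures were drawn with matplotlib 3.10.9.

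The genes and pathway lists were chosen with earlier results of these data known. All of the 10 genes were to be named, and from each other list at most 4 genes that passed with any cytokine and had a mean of at least 50, largest change with hlOSM first. Exceptions are marked, and some items are not reported here. Alternatives changed the pseudocount, the filter, the scaling, the variance model, the libraries in the fit and the replicate block, and left out each library in turn.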

Additional observations from a re-analysis of the deposited data

How the results depend on the processing

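Over 21 alternatives, 1273 of 1314 log2 fold changes of the 9 genes kept their direction and their side of the threshold. The number of genes past the threshold for hlOSM minus mOSM against mLIF minus PBS was 0, and became 1 with a filter at 50 normalized counts and 0 to 2 when libraries were left out (Timp1 without PBS library 1, and Timp1 and Adamts4 without hlOSM library 3, at adjusted p of 0.0133 and 0.0188). The cause was not tested. Of the log2 fold changes, 24 reversed, none of them past the threshold. Under quantile rescaling these were Timp1 between hlOSM and mOSM (0.00048) and Adamts1 for the test of the sum (−0.0061). With 1 library left out, the ranges that crossed 0 were −0.0055 to 0.23 (Adamts5, mOSM against PBS), −0.13 to 0.10 (Adamts5, hlOSM against PBS), −0.17 to 0.053 (Mmp2, mLIF against PBS), −0.13 to 0.024 (Mmp14, mOSM against PBS), −0.015 to 0.043 (Timp3, hlOSM against mLIF), −0.11 to 0.062 (Timp1), −0.18 to 0.094 (Adamts4) and −0.13 to 0.013 (Mmp14) between hlOSM and mOSM, and −0.067 to 0.10 (Adamts1) and −0.035 to 0.065 (Adamts9) for the test of the sum. Timp3 with mLIF also lost its call with no filter (adjusted p = 0.0505), Timp2 with mLIF gained one with only the compared libraries in the fit (0.0467), and so did Adamts1 between hlOSM and mLIF (0.0470).

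Libraries with the same replicate number tended to deviate in opposite directions (18 pairs, r −0.406 to −0.151, median −0.324). Those with different numbers tended to deviate together (36 pairs, median r 0.167). Deviations were taken from the mean of the 3 libraries of a condition, so the second value follows from the first and is no separate observation. These correlations do not show whether the numbers pair libraries, since values adjusted for the replicate number before deposit would also look so. Whether they were adjusted was not tested. With the replicate block, 28 of 63 log2 fold changes passed in place of 29, the difference being Timp3 with mLIF (adjusted p = 0.0612). The number of genes past the threshold with mLIF was then 4 in place of 5. Of the counts for the other pathway lists, 50 moved by over 1.5 times under an alternative and 706 did not, with no move larger than 3 genes. With 3 libraries a condition and depth unknown, counting error could not be separated from other spread.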
